A study of Mus musculus with 12 samples.

Results

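Wtap and 9 other genes that write, read or erase N6-methyladenosine (m6A) in RNA were followed across 12 Smart-seq2 libraries of mouse embryos and embryonic stem (ES) cells. The 10 genes, of 22619 gene symbols in all, were chosen by their role in m6A metabolism and with values of these libraries known, above all the 24385 FPKM of Wtap in a control embryo library. FPKM is an expression level scaled by gene length and by the reads of the library. The values of the 10 genes and the differences between groups are therefore a description, and no p of theirs is printed. How many of them the fit over all genes called is given only beside the share of all genes called, and no call of a member is support for its difference. Control embryos (n = 2) were C57BL/6 and wild type. KO embryos (n = 3) and KO arrest embryos (n = 3) were C57BL/6 with a Dcaf11 knockout, and the KO arrest libraries are told from the KO embryos only by the word arrest in their titles. Control ESC (n = 2) were 129Sv wild type ES cells and KD ESC (n = 2) were 129Sv ES cells with Dcaf11 knocked down. Dcaf11 encodes a substrate receptor of a CUL4-DDB1 ubiquitin ligase. Polyadenylated RNA was captured from every sample. The labels give no embryonic stage, no number of cells or embryos in a library, no deleted part of Dcaf11 and no ES cell clone. Whether libraries of 1 group are from different embryos or cultures is not said. A p therefore speaks of the spread over these libraries alone, and this spread can be technical.

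m6A is the most common internal modification of messenger RNA. It is laid down by METTL3 and METTL14 with adaptor proteins such as WTAP and RBM15, read by YTH-domain proteins and by IGF2BP proteins, and removed by the demethylases ALKBH5 and FTO. In early mouse development, stored maternal messages are cleared while the embryonic genome is switched on, and m6A readers take part in that clearance. ES cells are a much used system for the study of the METTL3-METTL14 writer.

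The promoters of Wtap and Fto are shown first, because these 2 genes had opposite orders of level between embryos and ES cells. The sequences are the 250 bases before a RefSeq gene start in GRCm38.p6, which is not the mm9 build of the expression values. They are written 5′ to 3′ on the strand of the gene, and capitals mark matches to the motifs searched. For Wtap this is chr17:12992544-12992793 on the minus strand, the first of 3 listed starts, and for Fto it is chr8:91313275-91313524 on the plus strand.
Wtap: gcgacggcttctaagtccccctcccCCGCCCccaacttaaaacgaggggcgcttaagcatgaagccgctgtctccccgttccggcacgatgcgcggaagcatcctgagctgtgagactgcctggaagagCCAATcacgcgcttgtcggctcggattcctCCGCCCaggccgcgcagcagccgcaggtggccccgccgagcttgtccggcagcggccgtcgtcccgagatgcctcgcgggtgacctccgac
Fto: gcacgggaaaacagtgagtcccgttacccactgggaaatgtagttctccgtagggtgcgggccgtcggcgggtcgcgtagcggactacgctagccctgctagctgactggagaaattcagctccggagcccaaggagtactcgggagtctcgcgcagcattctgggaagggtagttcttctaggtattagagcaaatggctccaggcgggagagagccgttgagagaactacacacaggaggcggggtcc
The motifs searched, on both strands, were CCAAT, present in 34.5% of 27025 RefSeq promoters of this length, GGGCGG, in 32.9%, TATAAA, in 13.0%, and CACGTG, in 6.05%. None of these motifs contains another. The Wtap window held CCAAT at position -121 on the strand of the gene and GGGCGG at -225 and -91 on the other strand, where it reads CCGCCC. The GC content was 68% for Wtap and 59.2% for Fto. These letters were not found in the Fto window. Promoters were matched for 8 of the 10 genes, and Mettl14 and Ythdf3 had no entry.

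The libraries differed in ways that touch these genes. Between 6573 and 10291 genes reached 1 FPKM in an embryo library, fewest in control embryo 1, and between 11685 and 12061 in an ES cell library. Coverage per FPKM, a measure of relative depth, ranged from 0.373 to 2.01 and was lowest in KO arrest 1 and highest in control embryo 1. The ES cell label was met by Pou5f1, Nanog and Sox2, pluripotency factors that stood at 246 to 478 FPKM over the ES cell libraries and at 14.1 FPKM or less in every embryo library. Another gene of the 8 ES cell markers, Dppa5a, went the other way, at 1322 to 2986 FPKM in KO embryos and KO arrest, 620 and 676 in control embryos and 356 to 698 in ES cells. It brought the sum of the 8 to 1699 to 3022 in KO embryos, against 2331 to 2632 in KD ESC and 3053 to 3111 in control ESC. Summed over 10 oocyte and maternal genes, FPKM was 38406 to 53500 in control embryos, 12253 to 18208 in KO embryos, 908 to 1530 in KO arrest and 1.70 to 2.37 in ES cells. Summed over 10 2-cell genes it was 706 to 1327, 146 to 187 and 179 to 620 in the 3 embryo groups, with Tcstv1 and Tcstv3 at 0 in every library. The KO arrest sum was mostly Zfp352, at 112 to 525 FPKM, and Usp17lc, at 31.6 to 77.1. Zscan4a to Zscan4f were each at 7.79 FPKM or less in KO arrest, against 0 to 32.4 in KO embryos. Fibroblast genes summed to 17.1 to 67.2 FPKM in control embryos, 59.2 to 92.9 in KO embryos and 0.0513 to 2.90 in KO arrest, where Col1a2, Col3a1, Lum and Dcn were listed at 0. Blood genes summed to 57.3 to 109, 200 to 300 and 0.864 to 2.18 FPKM, in control and KO embryos nearly all from S100a8 and S100a9, which were at 0 in KO arrest, and Hba-a1 was at 0 throughout. Trophectoderm genes summed to at most 21.7 FPKM with Cdx2 at 0 in every embryo, and cumulus genes to at most 17.1 FPKM in embryos with Fshr at 0. Dcaf11 itself was at 2.82 and 14.3 FPKM in control embryos, 0.184 to 3.99 in KO embryos and 0.422 to 6.02 in KO arrest. With the deleted part not given, these levels do not check the labels. In KD ESC it was at 1.69 and 1.83 FPKM against 6.48 and 4.52 in control ESC, a log2 difference of -1.22 ± 0.21 (SE; limma, adjusted p = 0.0521).

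WTAP is the adaptor that holds the m6A writer complex in nuclear speckles. Wtap (mm9 chromosome 17, 13159665 to 13185405, minus strand) was at 24385 and 2960 FPKM in control embryos 1 and 2. The KO embryos stood at 4287, 8920 and 6105 FPKM, and the KO arrest embryos at 2280, 1671 and 854. Its level was 57.8 and 53.5 FPKM in the control ESC and at 59.9 and 57.9 in the KD ESC. All 8 embryo libraries stood above all 4 ES cell libraries, and the 3 KO arrest libraries stood below the other 5 embryo libraries, while control and KO embryos overlapped. Wtap ranked first by FPKM of all genes in control embryo 1, where it took 7.19% of all FPKM, and in KO embryo 2, where it took 2.48%. In the other embryo libraries it ranked from 4 to 92, and in ES cells from 878 to 1033. The 2 control embryos differed from each other by more than any KO embryo differed from any other KO embryo. The number of cells in a library is not given, so fewer cells of a type and less RNA per cell cannot be told apart. The order of the embryo groups by mean Wtap was also their order by the summed oocyte and maternal genes given above. Single libraries did not all follow it. Control embryo 1, the higher in Wtap, had a sum of 38406 FPKM, against 53500 in control embryo 2. KO embryo 2 had the highest Wtap of its group and the lowest sum, 12253. KO arrest 1 was the highest of its group in both, with a sum of 1530. Control embryo 2 was lower in Wtap than every KO embryo, with a higher sum. The part of these genes in the level of Wtap was not tested.

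The deposited FPKM of Wtap was 3.14 to 3.20 times the level that its deposited coverage gives in every library, whereas for 88.4% or more of the rows of each library both values gave the same level to within 1%. From coverage, Wtap stood at 7627 and 927 in control embryos, 1341, 2793 and 1910 in KO embryos, 713, 523 and 271 in KO arrest and 16.7 to 18.7 in ES cells. The factor was nearly constant, so ratios between libraries hold on both scales. Its rank by coverage was 3 in control embryo 1 and 8 in KO embryo 2. In the other embryo libraries it was 15 to 337, and in ES cells 3128 to 3606. The comparison of the level of Wtap with that of other genes therefore depends on which of the 2 values is used.

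**Figure D1:**
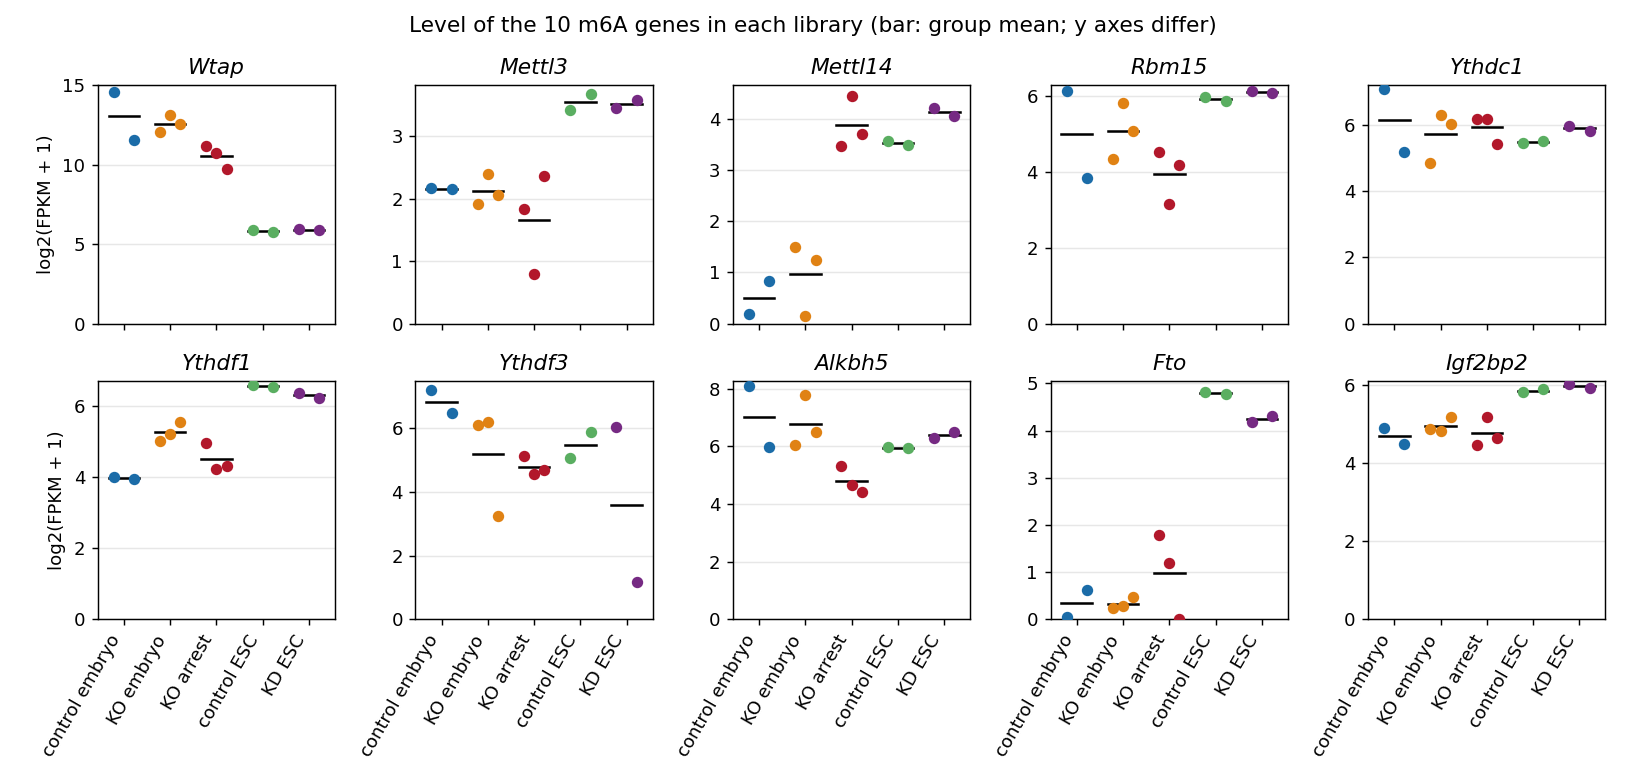
Level of each of the 10 m6A genes as log2(FPKM + 1), with 1 point per library, the mean of each group as a bar and a y axis of its own for each gene. Wtap lies higher in the 8 embryo libraries than in the 4 ES cell libraries, Fto and Ythdf1 lie lower, and Mettl14 is low in control and KO embryos only.

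METTL3 is the catalytic subunit of the writer. Mettl3 (chromosome 14, 52914517 to 52924799) was at 3.51 and 3.46 FPKM in control embryos, 2.76, 4.27 and 3.18 in KO embryos and 2.56, 0.740 and 4.15 in KO arrest. In ES cells it was at 9.73 and 11.8 FPKM in the controls and 9.95 and 10.9 after knockdown. The 3 embryo groups overlapped and lay below both ES cell groups, which also overlapped. The gene overlaps Tox4 on the opposite strand by 668 bases, and since the counting is not stated to use strand, reads there cannot be told apart.

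METTL14 binds RNA and stabilises METTL3, with no catalytic activity of its own. Mettl14 (chromosome 3, 123071213 to 123088908) was at 0.138 and 0.775 FPKM in control embryos, at 1.82, 0.114 and 1.36 in KO embryos and at 10.1, 20.8 and 12.03 in KO arrest. It was at 10.8 and 10.2 FPKM in control ESC and at 17.5 and 15.5 in KD ESC. Every KO arrest library was thus above every other embryo library, and the KO arrest range overlapped those of both ES cell groups. The KO arrest mean was 14.3 ± 5.74 FPKM (SD, n = 3), 31.3-fold that of the control embryos and 13.0-fold that of the KO embryos. The first fold rests on a control mean under 1 FPKM: leaving out control embryo 1 gave 18.5-fold, and leaving out control embryo 2 gave 103-fold. The 2 subunits of the same heterodimer therefore had different orders, since the mean of Mettl3 was no higher in KO arrest than in the other embryos. Of the embryo libraries, those of KO arrest also had the fewest oocyte, fibroblast and blood transcripts in the sums above, and the part of these in the Mettl14 level was not tested.

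RBM15 recruits the writer to uridine-rich sites and to the Xist RNA. Rbm15 (chromosome 3, 107129028 to 107136207) was at 69.0 and 13.3 FPKM in control embryos, 19.2, 55.3 and 32.8 in KO embryos and 21.9, 7.81 and 17.2 in KO arrest. It was at 61.8 and 57.3 FPKM in control ESC and 68.8 and 66.5 in KD ESC. The embryo groups overlapped one another, and control embryo 1 was as high as the ES cells. By FPKM, a level per length of gene, Wtap exceeded Rbm15 in every embryo library and was close to it in ES cells. From coverage Wtap also exceeded Rbm15 in every embryo library. In ES cells, however, it was then at 16.7 to 18.7, below Rbm15 at 57.3 to 68.8.

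YTHDC1 is the nuclear reader, with roles in splicing and export. Ythdc1 (chromosome 5, 87233515 to 87265682) was at 136 and 35.1 FPKM in control embryos, at 27.7, 77.4 and 64.5 in KO embryos and at 72.0, 71.7 and 41.7 in KO arrest. It was at 43.1 and 45.0 FPKM in control ESC and 62.1 and 55.5 in KD ESC. No embryo group was separate from another for this gene.

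YTHDF1 is a cytoplasmic reader linked to translation. Ythdf1 (chromosome 2, 180639082 to 180655641) was at 14.9 and 14.5 FPKM in control embryos, 31.3, 35.9 and 46.0 in KO embryos and 30.2, 17.8 and 18.9 in KO arrest. It was at 94.2 and 90.9 FPKM in control ESC and at 80.8 and 73.8 in KD ESC. No 2 of the 5 groups overlapped, and the order ran from control ESC through KD ESC, KO embryo and KO arrest to control embryo.

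YTHDF3 works with the other cytoplasmic YTH readers. Ythdf3 (chromosome 3, 16083183 to 16117038) was at 144 and 87.3 FPKM in control embryos, at 66.5, 71.4 and 8.50 in KO embryos and at 33.4, 22.6 and 24.6 in KO arrest. It was at 32.0 and 57.9 FPKM in control ESC and at 63.4 and 1.24 in KD ESC. Both control embryos were above all other libraries. KO embryo 3 and KD ESC 2 stood far below the other libraries of their groups, so the means of those groups rest on single libraries.

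IGF2BP2 is a reader of the insulin-like growth factor 2 mRNA-binding family, which stabilises bound messages. Igf2bp2 (chromosome 16, 22059082 to 22163372) ranged from 21.2 to 35.3 FPKM over the 8 embryo libraries, with group medians of 25.3, 28.7 and 24.1. It ranged from 55.7 to 64.9 FPKM over the 4 ES cell libraries. The embryo groups overlapped one another, and all ES cell libraries were above all embryo libraries.

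ALKBH5 is a nuclear m6A demethylase needed for male fertility. Alkbh5 (chromosome 11, 60351185 to 60372014) was at 271 and 61.1 FPKM in control embryos, 65.0, 218 and 88.1 in KO embryos and 38.6, 24.1 and 20.2 in KO arrest. It was at 61.5 and 59.8 FPKM in control ESC and 76.4 and 90.1 in KD ESC. The KO arrest libraries were lower than all others, at a mean of 27.6 ± 9.67 FPKM (SD, n = 3), and control and KO embryos overlapped.

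FTO removes m6A and related cap modifications and is known from body weight genetics. Fto (chromosome 8, 93837424 to 94192332) was at 0.0412 and 0.549 FPKM in control embryos, 0.191, 0.213 and 0.382 in KO embryos and 2.45, 1.28 and 0 in KO arrest. It was at 27.2 and 26.4 FPKM in control ESC and at 17.2 and 18.7 in KD ESC. Every ES cell library was above every embryo library. The 2 erasers thus differed in embryos, where Alkbh5 was at 20.2 FPKM or more and Fto at 2.45 FPKM or less in each of the 8 libraries, a comparison per length of gene.

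**Figure D2:**
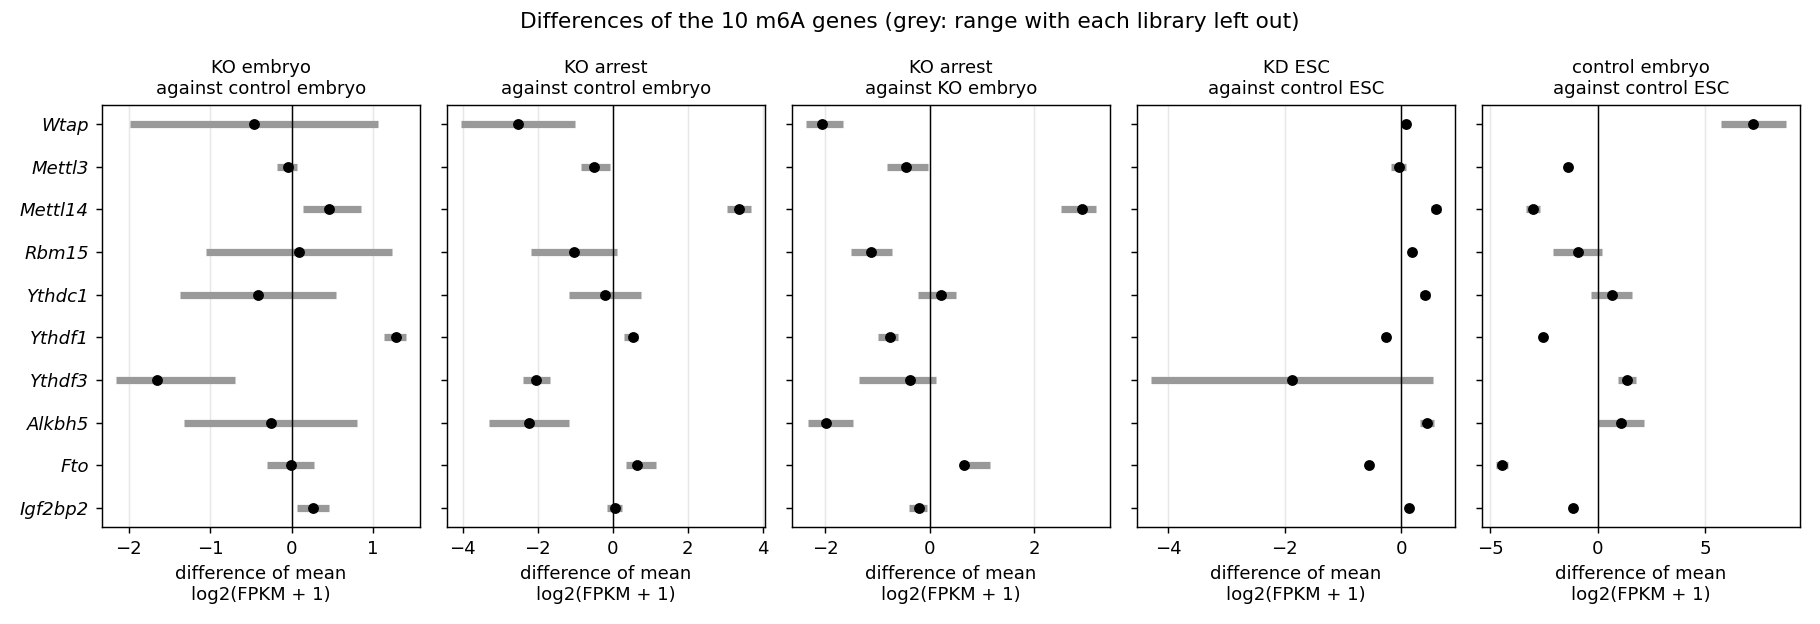
Difference of the mean log2(FPKM + 1) of each of the 10 m6A genes in 5 comparisons, as a point, with the range of the same difference when each library is left out in turn as a grey bar; the x axes differ between panels. The bars of Wtap, Rbm15, Ythdc1 and Alkbh5 against control embryos are wide, those of Mettl14 in KO arrest are narrow and far from 0.

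KO embryos were first compared with control embryos, which asks how embryos labelled as Dcaf11 knockout differ from wild type. Differences are of mean log2(FPKM + 1), with their standard error (SE), and understate the change of low genes. Ythdf1 was higher in every KO embryo than in both controls, by 1.28 ± 0.45, and Ythdf3 lower, by -1.65 ± 0.78, and the other 8 genes overlapped. With median-of-ratios scaling the Ythdf1 difference was 0.62. Here and in the later comparisons the share of all genes that overlapped is not given. Nothing is therefore read from how many members did or did not overlap. Wtap differed by -0.46 ± 0.75, and by 1.06 without control embryo 1 and -1.99 without control embryo 2, where it was called lower, so its direction rests on single libraries. Alkbh5 moved likewise from -0.26 to 0.81 without control embryo 1 and to -1.32 without control embryo 2. Rbm15 moved from 0.09 to 1.24 and -1.05, and Ythdc1 from -0.41 to 0.55 and -1.37. The signs of Rbm15 and of Igf2bp2, at 0.26, also depended on scaling. They turned to -0.59 and -0.41 with median-of-ratios scaling and to -0.20 and -0.03 with quantile scaling. Without KO embryo 3 the Ythdf3 difference was -0.69. None of the 10 genes was called at an adjusted p under 0.05 (limma), where 4.86% of 11795 genes were called higher and 1.5% lower. Before adjustment 1 was under 0.05, as were 22.5% of all genes. Since the members were chosen with these values known, nothing is read from that count. Fto was under 1 FPKM in every control and KO embryo. It passed the filter of the embryo fit only through KO arrest 1 and KO arrest 2, at 2.45 and 1.28 FPKM. In comparisons of embryo groups nothing is therefore read from its difference or from its lack of a call. The median difference of the members was -0.03 and that of all genes 0.31.

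KO arrest libraries were then compared with the same control embryos, so this and the first comparison share their controls. Wtap was 8.54-fold lower in KO arrest by the mean FPKM, a difference of -2.52 ± 0.75, and Alkbh5 was 6.01-fold lower, a difference of -2.23 ± 0.68. Leaving out control embryo 1 lowered these folds to 1.85 for Wtap and 2.21 for Alkbh5, and leaving out control embryo 2 raised them to 15.2 and 9.81. Mettl14 was higher by 3.37 ± 0.67. Ythdf3 was lower in every KO arrest library than in both controls, by -2.04 ± 0.78, and Ythdf1 higher in every one, by 0.53, although this turned to -0.17 with median-of-ratios scaling. Rbm15 differed by -1.04, Mettl3 by -0.50, Ythdc1 by -0.21, Fto by 0.65 and Igf2bp2 by 0.06, all with overlapping libraries. The Igf2bp2 difference turned to between -0.36 and -0.65 with each of the other scalings. Fto was kept by the filter through KO arrest libraries alone, so nothing is read from its difference. The fit called 1 member higher, Mettl14, where 16.4% of all genes were called higher, and 2 members lower, Wtap and Alkbh5, where 8.87% were called lower. The choice of members used these values, so nothing is read from the counts. Without control embryo 1 the Wtap difference was -0.998 and that of Alkbh5 -1.17, and neither was called. Neither was called without KO arrest 2, at -2.61 and -2.17, or without KO arrest 3, at -2.12 and -2.04. Alkbh5 was also not called without KO embryo 3, at an unchanged -2.23, where Ythdf3 was. Without control embryo 2 the Wtap difference was -4.04 and that of Rbm15 -2.18, which was then called lower, against 0.11 without control embryo 1. The Mettl14 difference lay between 3.05 and 3.69 with each library left out.

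KO arrest and KO embryo libraries carry the same Dcaf11 knockout label, so their comparison asks how the embryos marked as arrested differ from the others. Mettl14 was higher in KO arrest by 2.91 ± 0.60. Wtap was 4.02-fold lower by the mean, a difference of -2.05 ± 0.67, and Alkbh5 4.47-fold lower, a difference of -1.98 ± 0.61 (2.77-fold without KO embryo 2). Ythdf1 was also lower in every KO arrest library, by -0.75. The other 6 genes overlapped, with differences from -1.13 for Rbm15 to 0.66 for Fto, which the filter kept through KO arrest libraries alone. Ythdc1, at 0.21, turned to -0.23 with TPM and -0.25 with the sum of all genes but Wtap set equal. Mettl14 was the 1 member called, where 4.93% of all genes were called higher and 3.65% lower, and again nothing is read from this. It was not called without KO embryo 2, KO embryo 3, KO arrest 2 or KO arrest 3, where its difference was 2.51, 3.05, 2.62 and 3.00. Wtap and Alkbh5 were called without either control embryo, with differences unchanged at -2.05 and -1.98, since the controls enter this comparison only through the shared estimate of the spread.

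In ES cells the differences were between -0.55 and 0.60 for 9 of the 10 genes. Knockdown of Dcaf11 went with a higher Mettl14, by 0.60 ± 0.12 or 1.57-fold by the mean, and a lower Fto, by -0.55 ± 0.10 or 1.49-fold, both with no overlap. Alkbh5 was higher by 0.45, Ythdc1 by 0.41, Rbm15 by 0.18, Igf2bp2 by 0.13 and Wtap by 0.08, and Ythdf1 lower, at -0.26, all with no overlap. Mettl3 differed by -0.04, with a sign that turned in each of 4 other scalings. Ythdf3 differed by -1.88 ± 1.66 and rests on KD ESC 2, with 0.55 without that library and -4.30, called lower, without KD ESC 1. No member was called (limma), where 2.59% of 12264 genes were called higher and 3.64% lower, but with a minimum of 5 FPKM Fto was called lower at the same difference. Before adjustment 5 members were under 0.05, as were 30.2% of all genes. With 2 libraries in a group the precision is limited, and nothing is read from how many members had no overlap.

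Control embryos were last set beside control ESC, which differ in strain as well as in kind of sample, so the 2 cannot be told apart. Wtap was 246-fold higher in control embryos by the mean, a difference of 7.23 ± 0.81 (53.2-fold and 5.71 without control embryo 1, and 438-fold without control embryo 2). Fto was 90.8-fold lower, at -4.45 ± 0.53, Mettl14 23.1-fold lower, at -3.02 ± 0.53, and Ythdf1 6.29-fold lower, at -2.57 ± 0.33. With control embryo levels under 1 FPKM, the folds moved to 48.8 for Fto and 13.6 for Mettl14 on leaving out control embryo 1, and to 650 and 76.1 on leaving out control embryo 2. Mettl3 differed by -1.39 ± 0.49, Igf2bp2 by -1.16 ± 0.32, Rbm15 by -0.94, Ythdc1 by 0.64, Alkbh5 by 1.08 and Ythdf3 by 1.36, and Rbm15 turned to 0.07 with median-of-ratios scaling. Called were 1 member higher, where 12.6% of 14447 genes were called higher, and 5 lower (Mettl3, Mettl14, Ythdf1, Fto and Igf2bp2), where 40.8% were called lower. The share of members called lower is near that background, and nothing is read from either count. Without control embryo 1 Rbm15 was at -2.08 and called lower, and without control embryo 2 Ythdc1, at 1.61, and Alkbh5, at 2.14, were called higher. Igf2bp2 was not called without either control ESC, at -1.20 and -1.12, and Mettl3 was not called without any 1 of the 6 libraries of control embryos, control ESC and KD ESC, at -1.26 to -1.52. The median of the members was -1.05 and that of all genes -1.01.

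Other m6A genes and enzymes of other RNA modifications were tested in the same fits, with p-values adjusted over all genes (limma). In KO embryos against control embryos none of 16 tested other writers and readers was called (4 were under 0.05 before adjustment, as were 22.5% of all genes), and their median difference was 0.75 against 0.31 for all genes. Of 17 other RNA modification enzymes 2 were called, both higher, where 4.86% of all genes were. Trmt6, a subunit of a tRNA adenosine methyltransferase, rose from 6.86 ± 2.78 FPKM (SD, n = 2) to 67.6 ± 6.98 (SD, n = 3), a difference of 3.17 ± 0.42 (limma, adjusted p = 0.00505). Nsun2, an RNA cytosine methyltransferase, rose from 6.29 ± 7.62 to 35.8 ± 10.3 FPKM (2.87 ± 0.71, limma, adjusted p = 0.0411). The Nsun2 value was 1.50 without control embryo 1, where it was not called, and 4.24 without control embryo 2. With all libraries it was also not called with a pseudocount of 0.1, no filter, TPM, median-of-ratios scaling or the replicate block, 5 of 8 other settings (limma, adjusted p = 0.0332 to 0.103 over the 8). Ythdf2, the reader that promotes decay of messages and of maternal RNA, was at 737 and 78.6 FPKM in control embryos and 448, 850 and 473 in KO embryos. It differed by 1.22 ± 0.75 and was not called (limma, adjusted p = 0.373), but was called higher without control embryo 1, at 2.83, and turned to -0.38 without control embryo 2.

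In KO arrest against control embryos 3 of the 16 other m6A genes rose and 1 fell, shares near the 16.4% and 8.87% of all genes, with a median of 0.87 against 0.45 for all genes. Hnrnpa2b1, a nuclear RNA-binding protein described as a reader, rose from 16.5 ± 14.4 to 205 ± 65.2 FPKM (3.80 ± 0.75, limma, adjusted p = 0.00528). Hnrnpc, whose binding depends on m6A-driven RNA structure, rose from 57.7 ± 23.5 to 237 ± 54.6 FPKM (2.05 ± 0.42, limma, adjusted p = 0.00614). Mettl5, which methylates the RNA of the small ribosomal subunit, rose from 4.15 ± 5.87 to 40.7 ± 17.3 FPKM (3.70 ± 0.90, limma, adjusted p = 0.0135), and was not called without control embryo 1, at 2.09, or without KO arrest 3, at 3.38. Igf2bp3, a relative of Igf2bp2 abundant in oocytes and embryos, fell from 33.0 ± 1.62 to 6.56 ± 0.551 FPKM (-2.17 ± 0.44, limma, adjusted p = 0.00596). Of 17 other RNA modification enzymes 4 rose, where 16.4% of all genes did, namely Trmt6 (to 51.2 ± 7.17 FPKM), Nsun2 (to 22.9 ± 1.62), Alkbh3 (11.6 ± 2.76) and Mettl1 (2.46 ± 1.10). Alkbh3, a nucleic acid demethylase, and Mettl1, a tRNA guanosine methyltransferase, were listed at 0 in both control embryos. They passed the filter through knockout libraries alone and could only rise here, so nothing is read from the count of enzymes that rose. Nsun2 was not called without control embryo 1, at 0.92, and Mettl1 and Nsun2 were not called in most other settings.

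Igf2bp3 and Igf2bp2 can be set side by side, as close relatives. Igf2bp3 was at 34.1 and 31.8 FPKM in control embryos, at 26.1 to 32.8 in KO embryos, at 5.93 to 6.97 in KO arrest and at 32.8 to 33.8 in ES cells, so the KO arrest libraries alone were low. Igf2bp2 overlapped between all 3 embryo groups. Igf2bp1, the third of the family, was at 5.41 FPKM or less in every embryo library and at 164 or more in every ES cell library.

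In KO arrest against KO embryos 2 of the 16 other m6A genes were called, 1 in each direction, where 4.93% of all genes were called higher and 3.65% lower. Igf2bp3 fell by 2.01 on the log2 scale (SE 0.39, limma, adjusted p = 0.0147), and was not called without any of the 3 KO embryos in turn, at -1.93 to -2.09. Hnrnpa2b1 rose from 44.1 ± 37.6 to 205 ± 65.2 FPKM (2.49 ± 0.67, limma, adjusted p = 0.0451), a call lost in most other settings, with 1.91 to 3.14 when libraries are left out. Alkbh3 was the 1 of 17 other RNA modification enzymes called, from 1.74 ± 0.791 to 11.6 ± 2.76 FPKM (2.22 ± 0.54, limma, adjusted p = 0.0304), with 2.02 to 2.43 when libraries are left out and no call without any KO embryo or KO arrest library. With all libraries the Alkbh3 call was lost in 5 of 8 other settings, a pseudocount of 0.1, no filter, TPM, equal sums without Wtap and the replicate block (limma, adjusted p = 0.0233 to 0.0953 over the 8). In KD ESC against control ESC none of 18 other m6A genes was called (limma, with 5 under 0.05 before adjustment, as were 30.2% of all genes), although Igf2bp1, at a difference of 0.34, was called higher with a minimum of 5 FPKM and with 3 of the other scalings, and without KD ESC 1 or KD ESC 2 up to 2 other genes were called. Of 18 other RNA modification enzymes 1 was called. This was Alyref, an export factor that binds methylated cytosine in RNA, which rose from 93.2 ± 13.0 to 177 ± 7.03 FPKM (0.93 ± 0.12, limma, adjusted p = 0.0373). It was not called without any of the 4 libraries in turn, at 0.79 to 1.07.

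In control embryos against control ESC 9 of 18 other m6A genes were lower and 1 higher, where 40.8% and 12.6% of all genes were, with a median of -1.39 against -1.01 for all genes. Prrc2a, described as a reader, was at 0.193 ± 0.0749 against 78.6 ± 4.90 FPKM (-6.06 ± 0.45, limma, adjusted p = 8.07e-06), and Igf2bp1 at 2.16 ± 2.41 against 165 ± 0.491 (-5.96 ± 0.56, limma, adjusted p = 2.29e-05). The writer adaptors Rbm15b, at 8.58 ± 1.96 against 51.8 ± 0.0408 FPKM, and Virma, at 3.03 ± 1.15 against 11.95 ± 0.150 FPKM, were also lower, as were Mettl16, Zcchc4, Ythdc2, Hnrnpa2b1 and Hnrnpc. Trmt112, the partner of Mettl5, was the 1 gene that was higher, at 55.1 ± 40.4 against 12.1 ± 1.62 FPKM, and was not called without control embryo 2, at 1.08, or without either control ESC, at 1.76 and 2.02. Without control embryo 1, Zcchc4 was at -0.52, Hnrnpc at -0.69 and Ythdc2 at -2.03, and none of these was called. These 3 were also not called without either control ESC, nor was Hnrnpa2b1 without control embryo 2, at -2.48, or Virma without control ESC 2, at -1.70. With median-of-ratios scaling the counts were 4 higher and 4 lower. Of the 18 other RNA modification enzymes 12 were lower and none higher, where 40.8% of all genes were lower, with a median of -1.99.

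**Figure D3:**
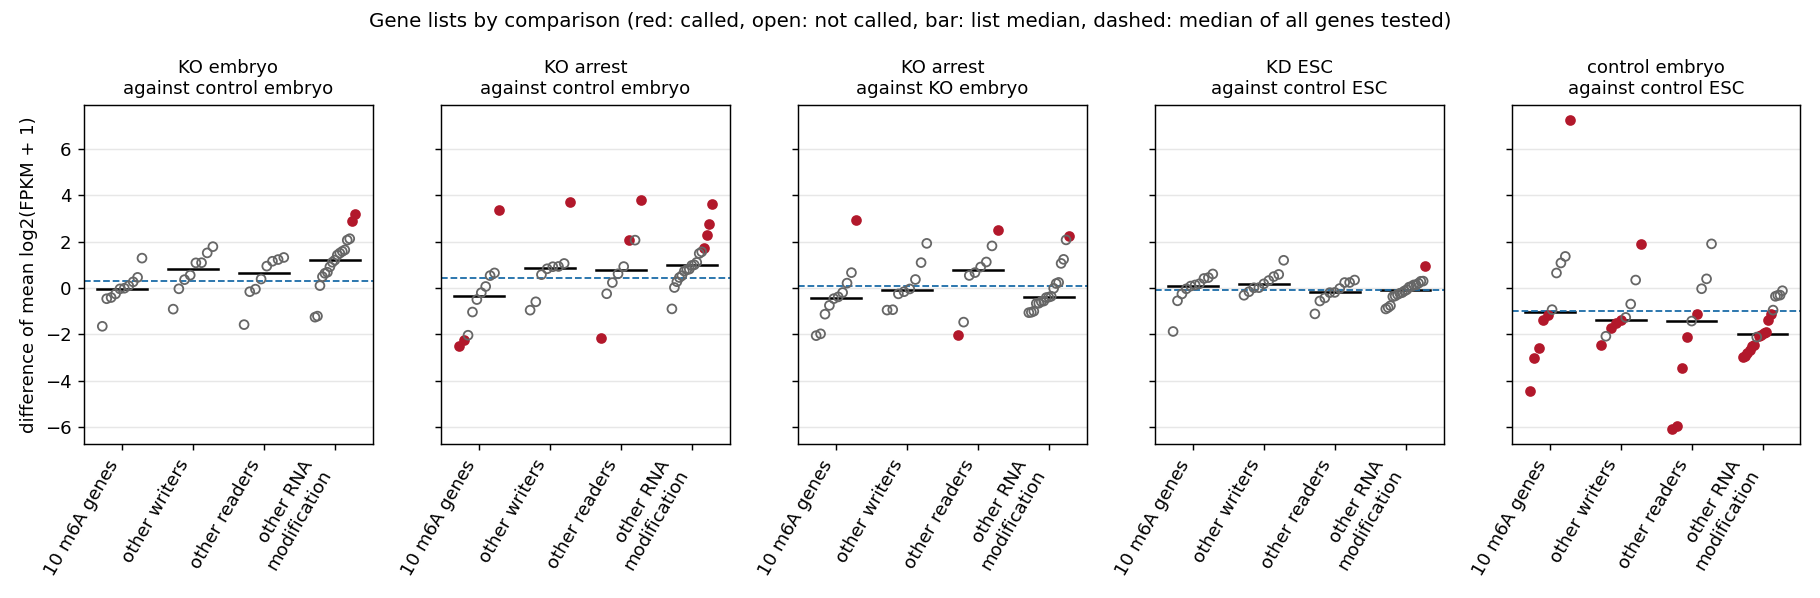
Difference of mean log2(FPKM + 1) of each gene of 4 lists in 5 comparisons, with called genes (adjusted p under 0.05 over all genes) in red, other genes as open points, the list median as a bar and the median of all genes tested as a dashed line. In KO arrest against control embryos the 10 m6A genes have a median of -0.35 and the medians of the other 3 lists lie above the dashed line.

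Some members shared their highest library with Wtap, a pattern noticed after the values were seen. Wtap was highest in control embryo 1, KO embryo 2 and KO arrest 1 of their groups. Rbm15, Ythdc1, Ythdf3 and Alkbh5, 4 of the 9 other members, had their highest values in the same 3 libraries, for Ythdc1 with KO arrest 2 nearly equal at 71.7 against 72.0 FPKM. Among the other m6A genes 2 of 8 writers, Rbm15b and Mettl16, and 2 of 8 readers, Ythdf2 and Fmr1, did so. Of all 11794 other genes tested 5.39% had this arrangement, and no test was made because the members were chosen. Control embryo 1 is also the library with the fewest genes at 1 FPKM, and the part of this in the shared pattern was not tested.

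**Figure D4:**
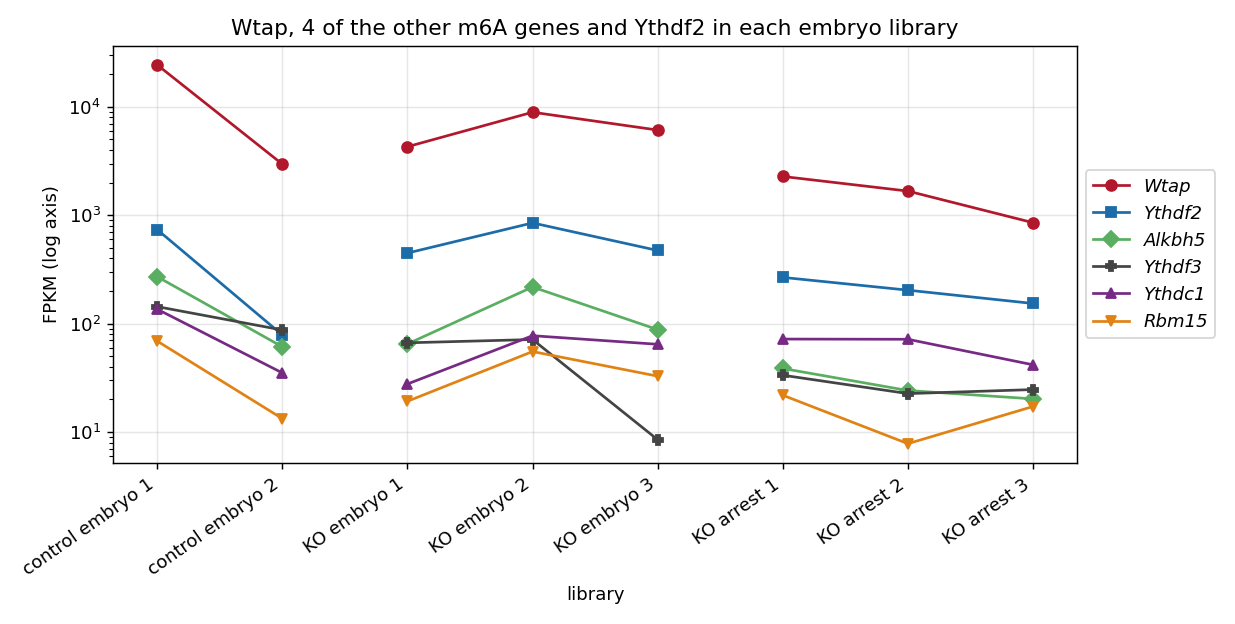
FPKM on a log axis of Wtap, of the 4 other m6A genes that share its highest library in each group and of Ythdf2 in the 8 embryo libraries; lines only join the values of a gene within a group, and replicate numbers have no order. By the choice of genes, values in control embryo 1 are above those in control embryo 2 for every gene plotted. Wtap lies above the rest in all 8 libraries.

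Likeness to Wtap was measured by Pearson's r of log2(FPKM + 1) over the 12 libraries for 14446 genes, as a description. The libraries fall into embryos and ES cells, and r mostly reflects that gap. The 5 most alike were Fbxo33 (r = 0.980), Rnf122 (0.978), Jak2 (0.977), Rimklb (0.977) and Syap1 (0.977). Over the 11 libraries without control embryo 1 they were Pik3c2a (0.998), Tex30 (0.990), Zc3h15 (0.989), Eny2 (0.986) and Gpbp1 (0.984), so no gene was in both sets of 5. Among the members r with Wtap over 12 libraries ranged from -0.93 for Fto to 0.37 for Ythdf3.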

How the data were processed

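The submitters' labels describe Smart-seq2 libraries made from polyadenylated RNA. The build mm9 and the tools STAR 0.6.0, StringTie and DESeq2 are named per the submitters' processing notes. Roles, settings and annotation were not given in the sources used here. Per the file headers each deposited table gives FPKM, TPM and coverage per gene. The deposited TPM values, scaled by the authors to an equal sum per library, served as an alternative, and the deposited coverage, a read depth per gene, gave relative depth. No read counts are held, so depth in reads is unknown, no counting interval was given and no count test was run. Rows without a gene name, 0.549% to 1.19% of FPKM, were left out and FPKM was summed per symbol.

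Groups came from the sample titles. limma 3.58.1 in R 4.3.3, with a mean-variance trend, was fitted to log2(FPKM + 1) for genes that reached 1 FPKM in 2 or more libraries. The 8 embryo libraries shared 1 fit with 5 residual degrees of freedom, ES cells were fitted alone with 2, and control embryo against control ESC used all 12 libraries with 7. A gene is called when its p, adjusted by Benjamini-Hochberg over all genes kept, is under 0.05. The fit was tested on simulated data. Libraries of equal replicate number were not found to deviate together, so the main fits used no pairing. In groups of 2 libraries the deviations mirror each other, so this check cannot exclude a pairing.

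The members, gene lists and tests were chosen with earlier results of these data known. Named are the 10 members, Dcaf11, called genes of the lists of other m6A writers, other m6A readers and other RNA modification enzymes (at most 6 per list), the marker genes, and the 5 genes most like Wtap; others were chosen after their values were seen. Virma and Cmtr1 were found under older symbols through RefSeq synonyms. The alternatives tried were TPM, a pseudocount of 0.1, a minimum of 5 FPKM or no minimum, equal sums without Wtap, median-of-ratios and quantile scaling, the replicate block and each library left out. A level of Wtap taken from coverage was added after seeing the data. Where 1 library is left in a group, it is assumed to vary like the others. Tables and plots used Python 3.11.15, pandas 2.3.3, numpy 2.4.6 and matplotlib 3.10.9.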

Additional observations from a re-analysis of the deposited data

Results flagged for a closer look

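The effects of knockout in embryos and of knockdown in ES cells had opposite signs for 8 of the 43 genes of the members and the other lists tested in both fits, with every KO embryo library on one side of both control embryos and both KD ESC libraries on the other side of both control ESC. Of all 9730 genes tested in both fits 12.8% had this arrangement, against 18.6% of the 43, and nothing is read from that. The difference of the 2 effects was not tested. Given as log2 differences, embryo value first, they are Ythdf1 at 1.28 and -0.26, Virma at 0.55 and -0.32, Ythdc2 at 0.94 and -0.43 and Nsun2 at 2.87 and -0.13. The others are Pus7 at 0.49 and -0.35, Dkc1 at 1.11 and -0.23, Wdr4 at 1.50 and -0.84 and Cmtr1 at 1.64 and -0.38. Of these, Nsun2 was called in embryos and none in ES cells (limma). Libraries were left out in turn, with values given above for Nsun2. In groups of 2 and 3 libraries, however, an outlying library cannot be told from the spread of its group.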

How the results depend on the processing

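Counts of called genes (limma) were 750, 2976, 1012, 764 and 7721 for KO embryo against control embryo, KO arrest against control embryo, KO arrest against KO embryo, KD ESC against control ESC and control embryo against control ESC. They moved by more than 1.5 times in 8 of 40 alternatives that keep all libraries. With no filter on low values they were 269 for the first comparison, 456 for the third and 313 for the fourth, and with TPM 431 for the fourth. With each library left out in turn they ranged from 87 to 1817, 1983 to 3636, 285 to 2023, 13 to 686 and 5682 to 8651. The cause was not tested.

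With the replicate number as a block the counts were 76, 1965, 550 and 26 in the first 4 comparisons and 7470 in the last. The numbers were not found to pair libraries, since same-numbered embryo libraries had deviations correlated at -0.0995 to 0.0246 and ES cell libraries at -0.0133. Under the block Wtap and Alkbh5 were not called in KO arrest against control embryos, at -2.32 and -2.07, and Mettl14 was, at 3.34.

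The share of higher calls depended on scaling. It was 76.4% in the first comparison, 35.8% with median-of-ratios and 56.9% with quantile scaling. In KO arrest against control embryos it was 64.9%, and 45.2% to 50% under the 4 other scalings, with the median of all genes shifted by -0.34 to -0.42. In the third it was 57.4%, and 29.0% with TPM, 32.6% with equal sums without Wtap and 47.1% with quantile scaling. In ES cells it was 41.6%, and 55.1% with median-of-ratios scaling. In the last it was 23.6%, and 37.6% with median-of-ratios and 45.7% with quantile scaling, where the median shifted by 0.58 and 0.93.

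Under settings that keep all libraries, 347 member differences moved by less than the spread between replicates and 52 by more. Wtap in the first comparison turned from -0.46 to 0.06 with quantile scaling. The calls of Wtap and Alkbh5 in KO arrest against control embryos were lost with no filter, and that of Mettl14 against KO embryos with a pseudocount of 0.1 or no filter. Ythdf3 was called lower in KO arrest against control embryos with equal sums without Wtap, median-of-ratios or quantile scaling, at -2.58 to -2.77. Mettl3 in control embryos against control ESC was not called with a pseudocount of 0.1, TPM, median-of-ratios or quantile scaling or the replicate block, and Igf2bp2 not with median-of-ratios scaling, at -0.16. For called list genes, values under such settings were followed for at most the 6 with the smallest adjusted p per list and comparison. Of these values 190 stayed past the threshold, 47 fell short of it and none changed sign. The weaker calls among the 12 enzymes lower in control embryos than in control ESC are not covered.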
